A study of Mus musculus with 18 samples.

Results

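Circular RNA was compared between the livers of mice given carbon tetrachloride (CCl4) with Pien Tze Huang (PZH) and those of water controls, 6 mice against 6, over the 434 circular RNAs of the deposited table. The series holds 18 liver libraries from male C57BL/6 mice, and the other 6, from mice given CCl4 without PZH, were left out. Of 45 mice that entered at 6 weeks of age, 15 per group, 6 per group were sequenced in week 22. Controls (treatment label "water week 22") had double distilled water by gavage every day and olive oil by intraperitoneal injection 2 times a week. The CCl4+PZH group (label "PTH week 22"; the study's design text writes PZH, and both were taken as one treatment) had the agent by gavage every day and CCl4 by intraperitoneal injection 2 times a week. CCl4 damages the liver and served in this study to bring about liver cancer, and Pien Tze Huang is a traditional Chinese medicine. Both agents separate these groups, so a difference between them cannot be assigned to either one: the effects of CCl4 and of PZH cannot be told apart. Each library came from 1 mouse as far as the labels say, and whether CCl4 produced tumours in the sequenced tissue is not given in the sources used here.

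A circular RNA forms when the spliceosome joins an exon's end to the start of the same or an earlier exon, which leaves a closed loop without free ends. Such loops resist exonucleases, are often made at low rates from long coding genes, and several have been studied for binding microRNAs or proteins. They are counted by reads that cross the back-splice junction, so 1 gene can give several circular RNAs. Linear mRNA of the host genes was not analysed here.

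Host genes were taken by position in GRCm38.p6. A gene contained both ends of 429 of the 434 circular RNAs, which lie in 374 genes, and 44 of these genes host more than 1. Positions below are in GRCm38, and names give the host with the start and end of the circular RNA. Exons were not used here and the table gives no strand, so an antisense gene at the same place cannot be told from the host. No sequence of a circular RNA was used here.

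Of the 405 circular RNAs that could be tested, 1 rose in CCl4+PZH and none fell. It lies on chromosome 3 outside every annotated gene, was listed at 0 in every control and was above 0 in every CCl4+PZH library. Values were CPM, that is, back-splice reads scaled by the authors to a library total of their choice. They were tested by limma on log2(CPM + 0.14155) over those above 0 in at least 6 of the 12 libraries, with a two-sided Benjamini-Hochberg adjusted p under 0.05. By this rule 0.247% of the tested circular RNAs rose and 0% fell. At an unadjusted p under 0.05 there were 14 of 405 (3.46%). A log2 difference below is CCl4+PZH minus control on this scale, which understates changes of low values.

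Abundance as a whole overlapped between the groups, and the controls were the more spread. Summed CPM was 208 ± 50.0 (SD, n = 6) in CCl4+PZH and 242 ± 190 (SD, n = 6) in controls, with an exact permutation p of 0.693. Control 3 had the lowest sum (40.4) and control 4 the highest (550), while the CCl4+PZH libraries lay between 116 and 251. Recovered back-splice reads numbered 1194 to 1869 per CCl4+PZH library and 900 to 2840 per control. Circular RNAs above 0 numbered 310 ± 24.8 (SD, n = 6) against 294 ± 29.6 (SD, n = 6), with an exact permutation p of 0.333. Where a value is 0, up to 3 reads are still allowed, which is from 0.135 CPM in control 3 to 0.918 CPM in control 2, for counting error only. Controls 2, 3 and 4 have a later deposit than the remaining 9 libraries, and the labels name no batch. Liver genes were represented in every library: circular RNAs of drug-metabolising and detoxifying hosts summed to 0.853 to 10.4 CPM per control and 1.07 to 3.61 CPM per CCl4+PZH library.

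**Figure D1:**
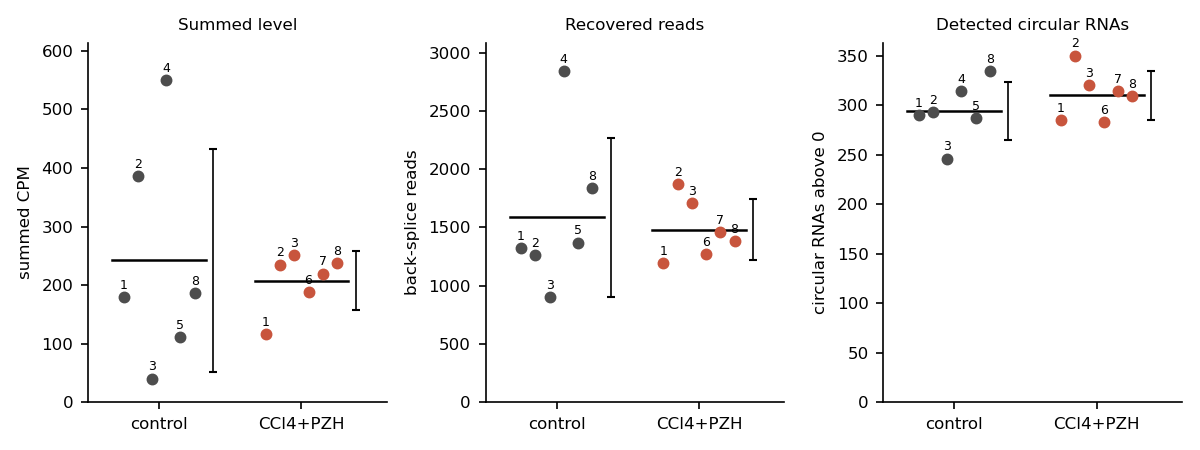
Each point is 1 library, numbered by mouse; the left axis is summed CPM, the middle one recovered back-splice reads and the right one the number of circular RNAs above 0. Horizontal bars are means and vertical bars SD (n = 6); the controls span 40.4 to 550 summed CPM and the CCl4+PZH libraries 116 to 251.

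The circular RNA that rose spans 177 bp, chr3:5860581-5860757. In CCl4+PZH its values were 9.61, 4.28, 3.24, 5.46, 4.82 and 2.40 CPM in mice 1, 2, 3, 6, 7 and 8, from 99, 34, 22, 37, 32 and 14 reads. All 6 controls were at 0, so the groups do not overlap. The mean of 4.97 ± 2.53 CPM (SD, n = 6) is at least 11.5-fold higher than the controls allow at 3 reads per library (a mean of 0.432 CPM). The fitted log2 difference of 5.04 (SE 0.77, adjusted p = 2.13e-08 by limma) depends on the pseudocount and is no bound. The adjusted p was 4.06e-08 by edgeR's quasi-likelihood test and 2.77e-11 by DESeq2, both on the recovered reads.

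Mouse 1 had the highest level and mouse 8 the lowest, and every CCl4+PZH value lay above the highest control floor. By mean level this circular RNA ranked 3 among all 434 in the CCl4+PZH group, with 238 of 8888 recovered reads (2.68%). None of 9529 control reads fell on it, which allows a share of up to 0.0315%. It was called by limma against controls 1, 5 and 8 only (adjusted p = 4.63e-09) and against the later deposited controls 2, 3 and 4 only (adjusted p = 0.00302). Since every control was at 0, these calls repeat the same contrast and are not separate support. An exact rank-sum test could not call it: the smallest p that 6 against 6 allows is 0.00216, which 2 circular RNAs reached, and adjusted over the 405 it is 0.438. This circular RNA passed the filter of 6 libraries through CCl4+PZH alone, and a filter of 9 libraries leaves it out.

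Annotation around it is sparse. The nearest genes are Gm8797, a pseudogene ending 109286 bp before it, and Gm46796, a long non-coding RNA gene starting 246260 bp after it. Pex2, which encodes a peroxisome assembly factor, ends 281985 bp before it, and the next coding gene on the other side starts 754656 bp away. With no host and no strand, the transcript it comes from is not known here.

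**Figure D2:**
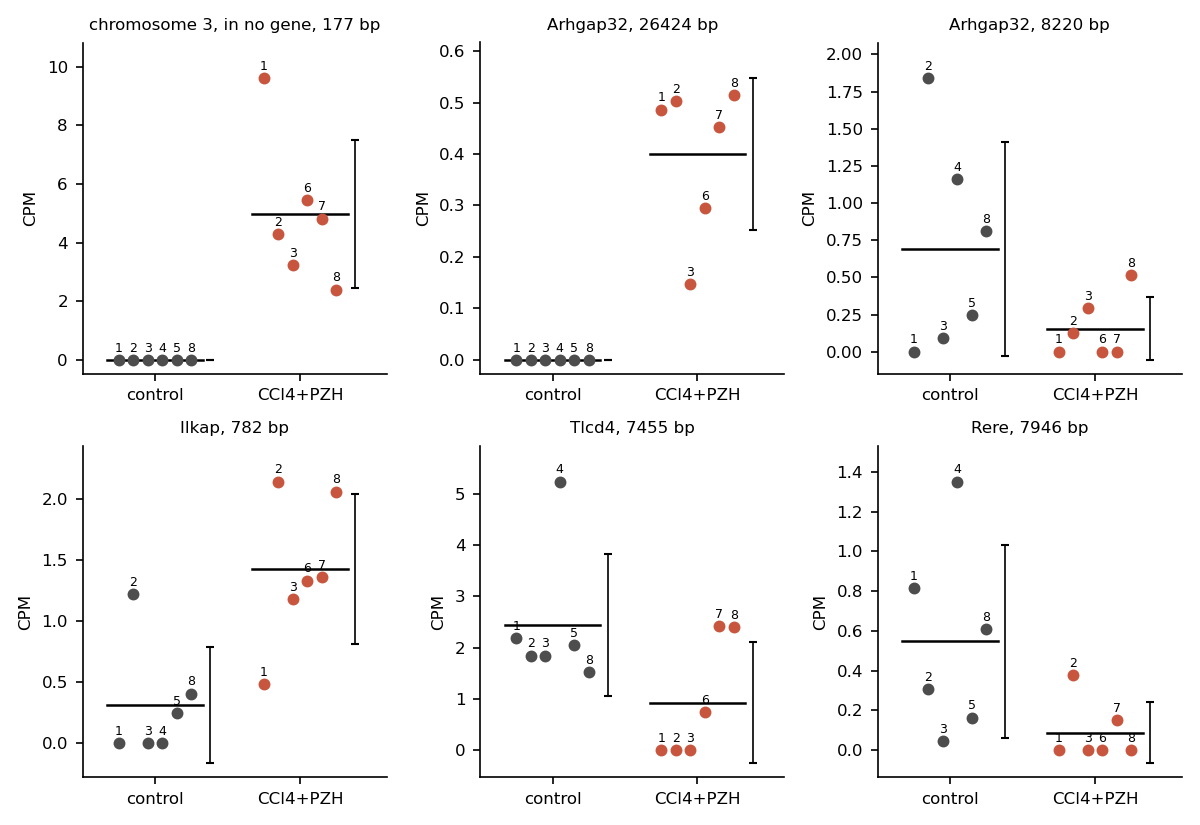
Each panel plots CPM in each library (points, numbered by mouse) for 1 circular RNA named by host and genomic span; horizontal bars are means and vertical bars SD (n = 6). The chromosome 3 circular RNA and the Arhgap32 one of 26424 bp are at 0 in all 6 controls and above 0 in all 6 CCl4+PZH libraries; in the other panels the groups overlap.

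The share of circular RNAs of short span had a higher mean in CCl4+PZH, a difference that missed the threshold after adjustment and was smaller without the chromosome 3 one. Those of up to 300 bp made up 8.28 ± 2.39% (SD, n = 6) of summed CPM in CCl4+PZH and 4.07 ± 2.17% (SD, n = 6) in controls. The exact permutation p was 0.0108, and 0.0541 after Benjamini-Hochberg adjustment over 5 library measures. Without the chromosome 3 circular RNA the share was 5.52 ± 0.862% (SD, n = 6) in CCl4+PZH, with an exact permutation p of 0.167 against controls. Control 4 had the highest share of all controls (7.61%), so leaving it out was bound to widen the difference. Without it the adjusted exact permutation p was 0.0216 for the full share. Without the chromosome 3 circular RNA as well it was 0.0433, at a difference of 2.16 percentage points. Of 15 alternatives 2 called the full share, both without control 4, and 1 the share without the chromosome 3 circular RNA. Of the 15 short ones that were tested, 11 had a log2 difference above 0 and 4 below, and the chromosome 3 one was called. The other 14 lay between -0.47 for Thrb, the thyroid hormone receptor beta gene, and 0.87 for Med13l, a gene of the Mediator complex.

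Arhgap32, which encodes a GTPase activating protein, hosts the other circular RNA whose groups did not overlap. No control library had a read of Arhgap32 32181842-32208265 (chromosome 9, 26424 bp), whereas CCl4+PZH ran from 0.147 through a median of 0.469 to 0.515 CPM. All 6 CCl4+PZH libraries were above 0, from 18 reads in all. The mean of 0.400 ± 0.148 CPM (SD, n = 6) lies under the mean control floor of 0.432 CPM, so no fold is given. The log2 difference was 1.88 (SE 0.59), and it was not called (adjusted p = 0.322 by limma). Groups failed to overlap in 2 of 434 circular RNAs with the higher values in CCl4+PZH (0.461%) and in 0 (0%) with the lower. One at 0 in both groups given CCl4 could not be listed, whereas one at 0 in the controls alone could. The directions were therefore not on equal terms.

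A shorter circular RNA of Arhgap32 begins at the same base and had values on the other side. Arhgap32 32181842-32190061 (8220 bp) ran from 0 through 0.529 to 1.84 CPM in controls and from 0 through 0.0629 to 0.515 CPM in CCl4+PZH, with a log2 difference of -1.19 (SE 0.72). Of the controls 5, and of the CCl4+PZH libraries 3, were above 0. The log2 ratio of the longer to the shorter differed between groups by 3.07 (SE 0.86, limma adjusted p = 0.0113 over 29 pairs that share an end, exact permutation p = 0.00649). The longer one had no control read and passed the filter through CCl4+PZH alone. Its control ratios thus rest on the pseudocount and the shorter one, so the difference is no estimate of a fold. Under the alternatives it ran from 0.940 to 4.73. That fit over pairs was added after the data had been seen, and it called 1 of the 29 pairs (3.45%).

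The call rests on few reads and few libraries. It was lost without control 2 (adjusted p = 0.0508), without control 8 (0.0506), without CCl4+PZH 1 (0.0529) and against controls 1, 5 and 8 only (2.49, adjusted p = 0.149). The third Arhgap32 circular RNA, 32151922-32153124, had a log2 difference of -0.34.

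None of the other 28 pairs with a shared end passed, and the 3 of next smallest p lay on both sides of 0. In Arih1, a ubiquitin ligase gene, the longer minus shorter log2 difference was -2.10 (limma adjusted p = 0.205). In Gphn, which encodes the scaffold protein gephyrin, it was 1.98 (adjusted p = 0.205 by limma). For Bckdhb, a subunit gene of the enzyme that breaks down branched-chain keto acids, it was -1.80 (adjusted p = 0.266 by limma). The more abundant Bckdhb circular RNA, 83952524-83991822, ran from 1.76 to 3.44 CPM in CCl4+PZH and from 0.179 to 3.48 CPM in controls.

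**Figure D3:**
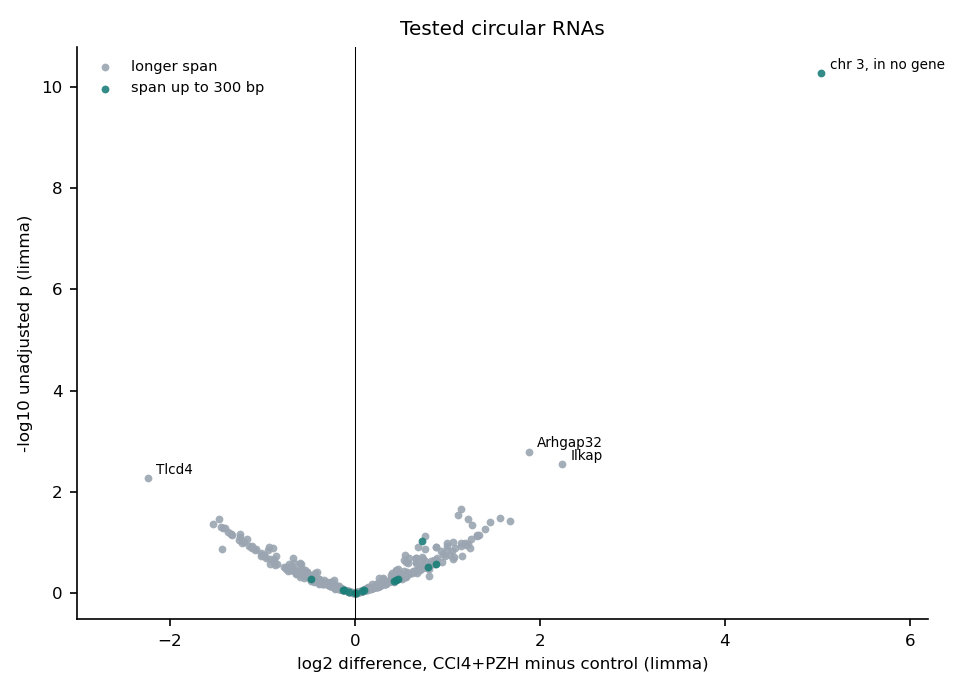
Each of the 405 tested circular RNAs is a point at its log2 difference (horizontal axis, CCl4+PZH minus control) and its -log10 unadjusted p (vertical axis, limma); colour marks a span of up to 300 bp, and the 4 of smallest p are named. The chromosome 3 circular RNA stands alone at 5.04, and the next are Arhgap32 (1.88), Ilkap (2.24) and Tlcd4 (-2.24), none of which was called on CPM.

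Ilkap and Tlcd4 had the next largest differences, in opposite directions, and were called only under other scalings. Ilkap encodes a phosphatase that acts on integrin-linked kinase signalling. Its circular RNA 91384565-91385346 (chromosome 1) ran from 0 through 0.122 to 1.22 CPM in controls and from 0.486 through 1.34 to 2.14 CPM in CCl4+PZH. The groups overlap through control 2 alone among controls, and the log2 difference was 2.24 (SE 0.75, adjusted p = 0.375 by limma).

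Tlcd4 encodes a membrane protein of the TLC domain family, to which the ceramide synthases belong. Tlcd4 121228310-121235764 (chromosome 3) was above 0 in every control, from 1.52 through 1.94 to 5.23 CPM. In CCl4+PZH it was at 0 in mice 1, 2 and 3, at 0.738 CPM in mouse 6 and at 2.41 and 2.40 CPM in mice 7 and 8. The CCl4+PZH values thus split into 3 at 0 and 2 above the control median. The log2 difference was -2.24 (SE 0.80, adjusted p = 0.549 by limma).

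Scaled to the table's own sum, which sets aside the unequal totals, Ilkap was called as higher (adjusted p = 0.042 by limma) and Tlcd4 as lower (log2 difference -2.41, adjusted p = 0.0359 by limma). By that scaling 0.494% of the 405 were higher and 0.247% lower. TMM factors and quantile normalization also called both, and neither was called under the other settings tried. A second Tlcd4 circular RNA, 121235043-121235764, had a log2 difference of -1.07.

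Hosts with the next smallest p and higher values in CCl4+PZH were mostly near the detection limit, and none was called (adjusted p = 0.979 by limma for each). Pvt1, a long non-coding RNA gene next to Myc, gave the most abundant of them, at 1.03 to 2.75 CPM in CCl4+PZH and 0 to 4.06 CPM in controls (log2 difference 1.67). Control 4 held the 4.06, from 21 reads, and control 2 the next highest control value, 0.918 CPM. Pvt1 was called in 0 of 33 alternatives. Ikzf1, which encodes the lymphoid transcription factor Ikaros, had 0.344 to 1.51 CPM against 0 to 0.968 CPM (1.57). Metap1d, a mitochondrial methionine aminopeptidase gene, had a log2 difference of 1.46, and Phkb, which encodes the beta subunit of glycogen phosphorylase kinase, 1.22. Wac, an adaptor of histone ubiquitination, had 1.27, Vars, a valine tRNA ligase gene, 1.15, and Trmt2b, a tRNA methyltransferase gene, 1.12. Vars rested on 11 reads in CCl4+PZH and 1 in controls.

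On the lower side too, the circular RNAs of next smallest p after Tlcd4 were not called (adjusted p = 0.979 by limma for each). Ces1c, a carboxylesterase gene whose near-identical neighbours make its reads uncertain, ran from 0.359 to 6.43 CPM in controls and from 0 to 1.36 CPM in CCl4+PZH (log2 difference -1.53). Scp2, which encodes a sterol carrier and peroxisomal thiolase, had -1.45 for 108055439-108063988 and 0.11 for its other circular RNA. Slco1b2, a bile acid and drug uptake transporter gene of hepatocytes, had -1.43 and -0.66. The Wnt co-receptor gene Lrp6 had -1.40, the ubiquitin ligase gene Arih1 -1.37, the mannosidase gene Man1a -1.34 and the ribonucleoprotein assembly gene Shq1 -1.25. Lrp6 was above 0 in 6 controls and in 2 CCl4+PZH libraries.

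All 3 circular RNAs of Rere, which encodes an atrophin family transcription corepressor, had log2 differences below 0. Rere 150431523-150439468 ran from 0.0449 through 0.458 to 1.35 CPM in controls and from 0 through 0 to 0.377 CPM in CCl4+PZH (log2 difference -1.47, SE 0.70). Rere 150468695-150477468 had -1.34 and Rere 150500003-150510038 -1.14, and none of the 3 was called. For the first, 4 CCl4+PZH mice were at 0 and no control was. Across the 41 hosts with 2 or more tested circular RNAs, 7 had all differences above 0, 8 all below and 26 a mixture. Summed per host, 0 of 352 hosts (0%) were called by limma.

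None of the 5 circular RNAs of highest mean over the 12 libraries was called, and in each the groups overlapped. Ube3a, the ubiquitin ligase gene of Angelman syndrome, gave the highest mean, with 8.76 ± 9.57 CPM (SD, n = 6) in controls and 5.01 ± 3.81 (SD, n = 6) in CCl4+PZH. Rmdn2, a microtubule-associated regulator gene, had 5.85 ± 5.72 and 5.25 ± 2.55 CPM (SD, n = 6 each). Gramd1c, which encodes a sterol transfer protein, had 5.60 ± 4.97 and 3.11 ± 2.69 CPM (SD, n = 6 each). Ttc39c, a tetratricopeptide repeat gene, had 3.60 ± 3.60 and 2.08 ± 1.80 CPM (SD, n = 6 each). Alg12, a mannosyltransferase gene of N-glycan assembly, was above 0 in all 12 libraries, with means of 2.73 CPM in controls (0.404 to 6.19) and 2.52 CPM in CCl4+PZH (1.18 to 4.53). Log2 differences ran from -1.43 (Gramd1c) to 0.80 (Rmdn2), and adjusted p by limma was at least 0.979. Even among the 20 of highest mean, 21 of 120 control values and 12 of 120 CCl4+PZH values were 0.

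Host genes were then read by function in 19 lists, of which 16 held at least 1 circular RNA. Apart from the called one, which has no host, no member of any list was called, against 0.247% of all circular RNAs tested. Over all 405 the median log2 difference was 0.02, with 211 above 0 and 194 below, and each list is described beside that. Lists chosen with results of these data known are not independent evidence, and the medians carry no test.

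Metabolic lists of the hepatocyte had medians below that of all 405 in lipid, detoxification and transport genes. Among lipid and fatty acid hosts 3 of 12 tested circular RNAs were above 0 and 9 below, with a median of -0.51 (-0.31 scaled to the table's own sum, as are the second medians below). Beside both Tlcd4 circular RNAs this list has Mlxipl, the glucose-sensing lipogenic transcription factor gene (-0.98), Hacl1, of peroxisomal fatty acid breakdown (-0.89), and Acaca, the acetyl-CoA carboxylase gene (-0.75). It does not hold every lipid gene among the hosts: Sptlc2, of sphingolipid synthesis, was outside it and had 0.73. Lipid hosts outside the list were not counted, so the median describes the listed ones only. Drug-metabolising and detoxifying hosts had 2 of 7 above 0 and a median of -0.70 (-0.54), from Ces1c (-1.53), the urate oxidase gene Uox (-1.11), Cyp2c70 (-0.92) and the paraoxonase gene Pon1 (-0.70) to Dpyd, of pyrimidine breakdown (1.15). Bile acid, cholesterol and transporter hosts had 5 of 12 above 0 and a median of -0.29 (-0.41). Within them the canalicular export pump gene Abcc2 had 1.41 for 43798407-43799145, and the cholesterol exporter gene Abca1 had -1.01, -0.67 and 0.17.

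Amino acid, urea cycle and glucose hosts had 9 of 15 above 0 (median 0.08, scaled 0.12), with Phkb and Bckdhb 83952524-83991822 (1.16) highest. Plasma protein hosts had 5 of 9 above 0 (median 0.02). Scaled to the table's own sum, that median was -0.20, so its sign depends on the scaling. Most of that list lies in the Mug and Cfhr families, whose near-identical copies share reads, among them Mug-ps1 122207897-122209106 (-0.59).

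**Figure D4:**
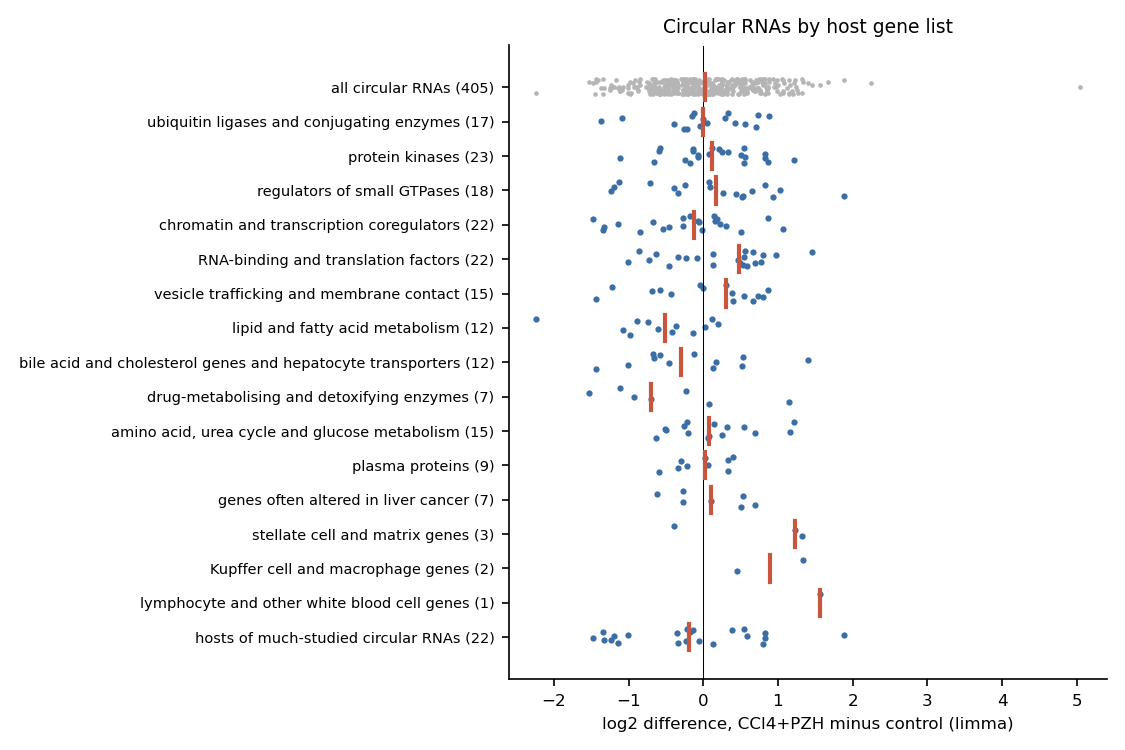
Each point is the log2 difference (horizontal axis, CCl4+PZH minus control, limma) of 1 tested circular RNA, in rows by host gene list with the number tested in brackets; vertical bars are medians. The lipid row (-0.51) and the detoxifying row (-0.70) have medians below the 0.02 of all 405, and no point within the list rows was called.

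Regulatory lists lay on both sides of the whole table. Chromatin and transcription coregulator hosts had 8 of 22 above 0 (median -0.12, scaled -0.17), from the 3 Rere circular RNAs and Phf21a, a histone demethylase complex gene (-1.33), to the Polycomb subunit gene Eed (1.06). RNA-binding and translation hosts had 14 of 22 above 0 (median 0.48, scaled 0.20), among them Hnrnpu, a nuclear ribonucleoprotein gene (-0.86). Its extremes, Metap1d and Gphn, do not encode RNA-binding proteins. Protein kinases and their subunits had 13 of 23 above 0 (median 0.11, scaled 0.30), and small GTPase regulators 11 of 18 (median 0.18, scaled 0.16), with Arhgap32 32181842-32208265 at the upper end (1.88) and Psd3, an Arf exchange factor gene, at the lower (-1.24). Vesicle trafficking and membrane contact hosts had 8 of 15 (median 0.31, scaled 0.06), with the endoplasmic reticulum contact protein gene Vapa at -1.22. Ubiquitin hosts had 9 of 17 (median 0.00, scaled 0.09), and hosts of much-studied circular RNAs 8 of 22 (median -0.19, scaled -0.24). Genes often altered in liver cancer had 4 of 7 above 0 (median 0.11, scaled 0.26), including the growth factor receptor gene Egfr (0.51).

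The lists of markers of other liver cell types held few of these hosts. Adgre1, the F4/80 antigen gene of Kupffer cells and other macrophages, and Mertk, a receptor for engulfing dead cells, were the hosts in the macrophage list. Adgre1 57419322-57420524 ran from 0 through 0.300 to 0.918 CPM in controls and from 0.194 through 0.969 to 2.14 CPM in CCl4+PZH (log2 difference 1.34, SE 0.74, adjusted p = 0.979 by limma). Mertk had 0.46, and 2 more Adgre1 circular RNAs were too sparse to test. Of these, 57418888-57420524 reached 0.581 CPM in controls and only 0.147 CPM in CCl4+PZH. The other, 57406834-57408495, reached 0.272 CPM in controls and 0.344 CPM in CCl4+PZH. Stellate cell and matrix hosts were Mmp15, a membrane-bound matrix metalloprotease gene (1.32), Msrb3, a methionine sulfoxide reductase gene (1.23), and Adamts13, the protease gene for von Willebrand factor (-0.39). Ikzf1 was the only host in the lymphocyte list, and endothelial, bile duct and red blood cell lists had no member. These lists do not hold every gene of a cell type: the hosts Cd84, of white blood cells, and Nostrin, of endothelial cells, were outside them. In whole liver, fewer cells of a type and less RNA per cell cannot be told apart.

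Shares of the summed CPM set the groups apart in 3 of 16 lists, as a description added after the data had been seen. Groups did not overlap, with higher values in CCl4+PZH, in 2 of 16 lists (12.5%), and with lower values in 1 of 16 (6.25%). Lipid hosts made up 3.72% to 7.67% of the sum in controls and 2.26% to 3.48% in CCl4+PZH. Macrophage hosts made up 0% to 0.530% in controls and 0.550% to 1.28% in CCl4+PZH, and stellate and matrix hosts 0.272% to 0.633% and 0.670% to 1.99%. Each of these rests on 1 circular RNA: the groups overlapped without Tlcd4 121228310-121235764, without Adgre1 57419322-57420524 and without Msrb3, in that order. For macrophage hosts the nearest libraries were control 1 (0.530%) and CCl4+PZH 6 (0.550%). Adgre1 had 2, 2 and 3 reads in control 1 and 7 in CCl4+PZH 6, so only the totals of 1321 and 1273 reads part them. For stellate and matrix hosts control 2 (0.633%) and CCl4+PZH 1 (0.670%) were likewise equal in reads, with totals of 1263 and 1194. Detoxifying hosts took 2.12 ± 0.569% (SD, n = 6) in controls and 1.12 ± 0.331% (SD, n = 6) in CCl4+PZH, and overlapped through control 4. The part of unequal cell numbers in these shares was not tested.

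**Figure D5:**
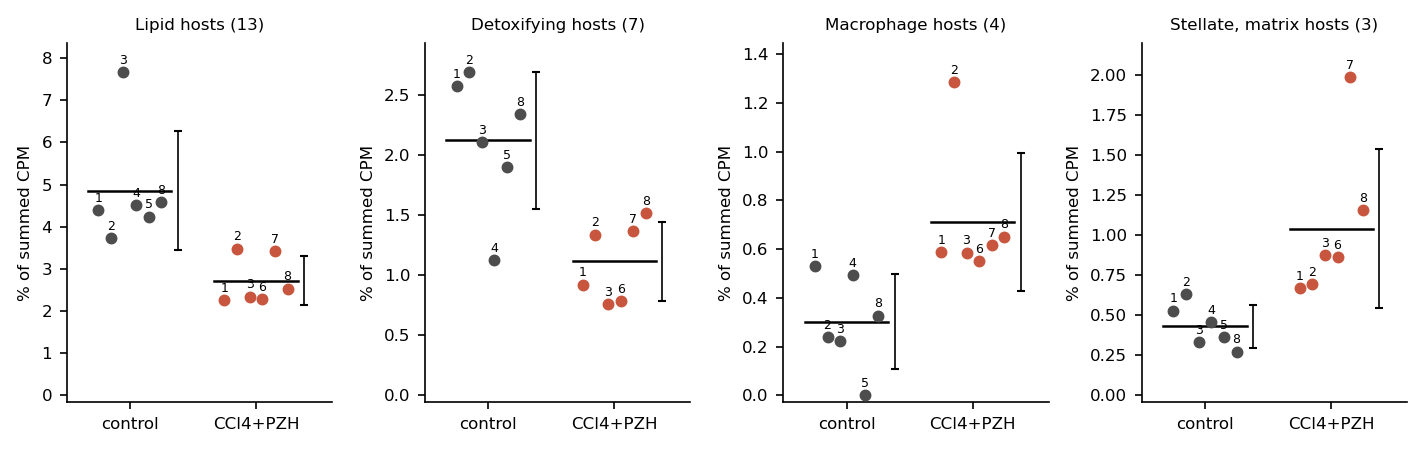
Each point is 1 library, numbered by mouse, and the vertical axis is the percentage of its summed CPM in circular RNAs of a host list (members in brackets); horizontal bars are means and vertical bars SD (n = 6). Lipid hosts are lower in all 6 CCl4+PZH libraries than in any control (2.26% to 3.48% against 3.72% to 7.67%). Macrophage hosts and stellate and matrix hosts are higher, though the nearest libraries on either side hold equal reads of them, and detoxifying hosts overlap. Each separation is lost without 1 circular RNA, that is Tlcd4 121228310-121235764 (lipid), Adgre1 57419322-57420524 (macrophage) or that of Msrb3 (stellate and matrix).

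Presence was counted as well, since most circular RNAs were at 0 in some library. Above 0 in more CCl4+PZH than control libraries were 179 circular RNAs, in fewer 137 and in as many 118. Differences of 4 or more libraries were found for 8 with more CCl4+PZH libraries and for 4 with more controls. Every control was at 0 for 3 circular RNAs, those of chromosome 3, Arhgap32 and Vrk2, and no circular RNA was at 0 in all CCl4+PZH libraries. Only 24 were above 0 in all 12. None was listed that was above 0 in fewer than 9 of the 18 libraries. One at 0 in both groups given CCl4 could thus not appear, whereas one at 0 in the controls alone could. These counts are therefore tilted in advance towards presence in CCl4+PZH.

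The 29 circular RNAs that failed the filter were present in at most 5 of the 12 libraries, and testing them too gave no further call. Vrk2, a gene of the vaccinia-related kinase family, was above 0 in 5 CCl4+PZH libraries and in no control, from 10 reads (log2 difference 1.34, adjusted p = 0.445 by limma without the filter). Zc3h7a 11144001-11144173, in a zinc finger RNA-binding protein gene, was above 0 in 4 CCl4+PZH libraries and in 1 control, with medians of 1.91 and 0 CPM and highest values of 2.86 and 2.75 CPM. Its log2 difference was 2.02 (adjusted p = 0.445 by limma without the filter). Tlk1 70770004-70786995, in a chromatin kinase gene, had 47 reads in 3 CCl4+PZH libraries, where 1 library reached 5.17 CPM, and 2 in controls. On the lower side Tnks2, a tankyrase gene, had -0.97 and Golph3, a Golgi membrane protein gene, -0.91, each in 4 controls and 1 CCl4+PZH library.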

How the data were processed

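Back-splice reads were measured in 12 of the 18 liver libraries (6 control, 6 CCl4+PZH), made from RNA depleted of ribosomal RNA and sequenced from both ends at 150 bp, per the labels' protocols. The deposited table holds CPM values computed by the authors. FastQC 0.11.9, cutadapt 4.2, HISAT2 2.2.1, StringTie 2.1.5, Bowtie2 2.5.1 and build GRCm38 come from the submitters' processing notes; the sources used here give neither the caller, nor the total behind CPM, nor the filter of the 434. All 7812 values of the 18 libraries (100%) lay within 0.1 of a whole multiple of 1 read, so reads were recovered; the median non-zero value was 3 reads. No circular RNA of the table was above 0 in fewer than 9 of the 18.

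Groups were compared with limma 3.58.1 under R 4.3.3, with an intensity trend, on log2(CPM + 0.14155), over circular RNAs non-zero in at least 6 of 12 libraries. The pseudocount is the median of the 12 smallest non-zero values, 1 per library. Library measures were compared by exact two-sided permutation tests, whose smallest p is 0.00216. Alternatives were other pseudocounts, filters and scalings, an exact rank test, array weights, DESeq2 1.42.0 and edgeR 4.0.16 on recovered reads, a replicate block, subsets of controls and each library left out. Sums per host, pairs with a shared end and list shares were added after seeing the data. The limma step was tested on simulated data, scaled so that the unequal CPM sums of the libraries were not reproduced. That test therefore does not show how the step handles such sums. Over 30 pairs of libraries within a group, chi-square per degree of freedom was at least 2.12 (p at most 1.01e-31). No pair thus differed by counting error alone, as the same library sequenced again would. Libraries prepared separately from 1 mouse could differ by more, so the test cannot exclude them. Nothing says more of the mice than a number, so p-values measure the spread between these samples. Tables and plots were made in Python 3.11.15 (scipy 1.17.1, pandas 2.3.3, numpy 2.4.6, matplotlib 3.10.9).

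The named circular RNAs are those called, the 10 of smallest p on each side, those whose groups do not overlap, the 5 of highest mean CPM, and per list the member of smallest p; other members named were picked after their values were seen. Some list members are not reported here. The comparison, the members and the lists were chosen with earlier results of these data known. A planned check of exon ends was not run, since exons were not used here.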

Additional observations from a re-analysis of the deposited data

Results flagged for a closer look

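Among the named circular RNAs and the library measures, 68 groups of 6 were examined for a single library that lay far from the others, and 9 had one. Chance was taken to give about 1 in 20 groups. Many of these values are 0 or a few reads and the groups share libraries, so whether 9 is an excess was not tested. Control 4 was the far library for Tlcd4 121228310-121235764 (5.23 CPM), Pvt1 (4.06 CPM), Lrp6 (1.74 CPM) and Ikzf1 (0.968 CPM). Control 2 was far for Ces1c (6.43 CPM), Ilkap (1.22 CPM) and Mmp15 (0.918 CPM). In Vars, control 1 was the 1 control above 0 (0.136 CPM, from 1 read). In CCl4+PZH the only such library was mouse 3 for Vapa (2.06 CPM). Control 4 also had the highest summed CPM (550) and control 2 the next (387).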

How the results depend on the processing

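Under 34 alternatives, the count of circular RNAs called on CPM (1) became 3 (2 higher, 1 lower) when scaled to the table's own sum, with TMM factors and with quantile normalization, where Ilkap and Tlcd4 joined the chromosome 3 one. It became 0 with the filter of 9 libraries, which removes that circular RNA (6 of 210 had an unadjusted p under 0.05). It was also 0 by the exact rank-sum test, where 2 circular RNAs reached the smallest possible p and none could pass adjustment (smallest adjusted p 0.438, 12 of 405 unadjusted). It was 0 when CPM was summed per host, since the chromosome 3 circular RNA has no host. With each library left out it stayed at 1. The chromosome 3 circular RNA was called in 31 of 32 alternatives that tested it. The replicate block gave 1 call. The deviations of same-numbered libraries (1, 2, 3 and 8) correlated at -0.09 to 0.07, and only number 2 correlated best with its own number. That gives no sign that the numbers pair the mice, but values of so few reads cannot exclude it.

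Of the pairs with a shared end 1 was called, 2 with a pseudocount of 1 CPM, 0 with the replicate block (Arhgap32 at 2.52, adjusted p = 0.124 by limma), 0 against controls 1, 5 and 8 only, and 0 to 1 with each library left out. The short-span share differed by 4.21 percentage points, by 4.41 (adjusted exact p = 0.0476) without controls 3 and 4, and by 3.39 to 4.92 with each library left out. Without the chromosome 3 circular RNA it differed by 1.45, and by 0.901 to 2.16 with each left out (adjusted exact p = 0.0433 without control 4). No called value reversed. The median log2 difference of all tested (0.02) was -0.17 without control 3, 0.19 without control 4, 0.23 with array weights and -0.09 by edgeR with the implied totals. A median non-zero value of 3 reads limits the precision of most circular RNAs.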
